A study of Mus musculus with 6 samples.

Results

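Peroxiredoxins and the glutathione redox enzymes remove hydrogen peroxide and lipid peroxides, and their transcripts were followed here in blood stem cell fractions of mice given granulocyte colony-stimulating factor (G-CSF) or PBS. The group was defined as 10 named genes, Prdx1 to Prdx6, Gsr, Gpx1, Gpx4 and Cat, each represented by the array probeset annotated with that gene symbol alone. Of these, 8 had such a probeset and all 8 passed the filter on dim probesets, out of 14994 genes tested in all. Prdx5 and Prdx6 had no probeset with a single matching symbol and are not analysed here. The cells were KSL SLAM cells from bone marrow, a population enriched for haematopoietic stem cells and sorted as negative for lineage markers, CD48 and CD41 and positive for c-Kit, Sca-1 and CD150. Mice in the treated group received G-CSF subcutaneously at 125 mcg/kg, 2 times a day, and treatment with G-CSF or PBS lasted 7 days. Each group had 3 arrays (MoGene 1.0 ST), and every array stood for its own pool of 5 to 10 mice. The sources used here do not give genotype, strain, sex or age.

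A peroxiredoxin reduces peroxide with a reactive cysteine, which is then restored mostly by thioredoxin and thioredoxin reductase. Glutathione peroxidases use glutathione instead, and glutathione reductase (Gsr) returns the oxidised glutathione to its reduced form at the cost of NADPH. Catalase (Cat) breaks down hydrogen peroxide in peroxisomes without a reducing partner. The enzymes are divided among compartments. Prdx1, Prdx2 and Gpx1 act mainly in the cytosol, Prdx3 in the mitochondrial matrix and Prdx4 in the endoplasmic reticulum, while Gsr and Gpx4 have forms in both the cytosol and the mitochondria. Low levels of reactive oxygen species are a known feature of quiescent stem cells, and neutrophils are known to depend on glutathione reductase during the oxidative burst.

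The stretches upstream of the mitochondrial Prdx3 and the cytosolic Prdx1 are shown because these peroxiredoxins represent the compartments compared below. Each is the run of 250 bases that ends at the annotated transcription start, from RefSeq (build GRCm38.p6), read 5′ to 3′ on the gene's strand. Prdx1 is at chr4:116685349-116685598 (plus strand), where the first run of capitals marks a match to the core of the antioxidant response element bound by NRF2 and the second a GC box of the SP1 type. Prdx3 is at chr19:60874539-60874788 (minus strand), where the first run marks a C/EBP-type match and the second a GC box.
Prdx1: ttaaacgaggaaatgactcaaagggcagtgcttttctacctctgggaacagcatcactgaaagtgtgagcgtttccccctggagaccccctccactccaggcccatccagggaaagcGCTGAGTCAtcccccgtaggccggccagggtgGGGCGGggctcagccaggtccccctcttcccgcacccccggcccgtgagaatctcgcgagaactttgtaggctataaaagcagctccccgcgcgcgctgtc
Prdx3: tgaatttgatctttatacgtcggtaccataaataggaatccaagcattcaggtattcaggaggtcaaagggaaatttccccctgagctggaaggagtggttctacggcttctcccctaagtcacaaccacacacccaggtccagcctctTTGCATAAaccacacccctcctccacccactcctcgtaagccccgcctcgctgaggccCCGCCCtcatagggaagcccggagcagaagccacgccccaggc
Promoters in the RefSeq table were found for 8 of the 10 named genes, Prdx5 included. Both strands were searched for 8 motifs, and in the sequences shown no matches overlapped. The antioxidant response element core (TGACNNNGC) occurred upstream of Prdx1 alone among these genes, 133 bases before its start, and in 10.2% of all 32851 promoters of that length. The C/EBP pattern (TTGCNNAA) occurred upstream of Prdx3 alone, 101 bases before its start, and in 9.56% of all promoters. The GC box (GGGCGG) occurred in 6 of the 8 genes and in 32.7% of all promoters. An ETS pattern (CCGGAAG, 6.91% of all promoters) was found for Prdx5, the NRF1 motif (3.74%) for Gpx4 and an E-box (CACGTG, 6.02%) for Prdx4. A forkhead pattern (GTAAACA, 3.17%) and a STAT pattern (TTCNNNGAA, 7.02%) were not in these windows. A match describes the letters and not the binding of a factor.

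The arrays had median intensities of 56.2 to 61.7, and Spearman's rho ran from 0.861 to 0.895 for arrays of one group and from 0.836 to 0.892 across groups. Among stem cell markers, all 9 measured genes passed the filter and had negative differences, and their mean log2 intensity was 8.37 to 8.54 in PBS arrays and 7.88 to 8.22 in G-CSF arrays. Markers of mature neutrophils had means of 8.22 to 9.25 in PBS arrays and 10.17 to 10.87 in G-CSF arrays, with no overlap between the groups in 11 of 12 genes, all higher with G-CSF. All 8 markers of granulocyte-monocyte progenitors were likewise higher without overlap (list means 6.43 to 6.95 and 7.90 to 9.03). Monocyte markers had means of 6.40 to 6.91 in PBS arrays and 7.15 to 7.33 in G-CSF arrays. Megakaryocyte markers had means of 6.57 to 6.83 in PBS arrays and 5.74 to 5.96 in G-CSF arrays, with negative differences in all 6 measured genes. The stem cell, monocyte and megakaryocyte list means did not overlap between groups either. Gene by gene, the groups did not overlap in 2 of the 9 stem cell markers (Kit and Tek, lower). They did not overlap in 5 of the 6 monocyte markers (higher) and 2 of the 6 megakaryocyte markers (Mmrn1 and Pf4, lower). Only 2 of the 7 lymphoid markers with a probeset passed the filter. In bulk RNA, a change in the share of a cell type and a change in RNA per cell cannot be told apart.

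Groups were compared with limma across all 14994 genes, with values on the log2 intensity scale and differences given as G-CSF minus PBS. Of the 8 measured enzymes, 0 passed at a Benjamini-Hochberg adjusted p under 0.05, where 0.0267% of all genes passed in either direction. At an unadjusted p under 0.05 there were 2 of the 8 by limma, Prdx3 with a negative and Gsr with a positive difference, against 6.04% of all genes. These were also the enzymes whose groups did not overlap, where 5.77% of all genes lay higher and 5.05% lower without overlap. Differences were negative in 6 of the 8 enzymes and in 49.7% of all genes. The median difference was -0.32 over the 8 enzymes and 0.00 over all genes (0.0015).

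**Figure D1:**
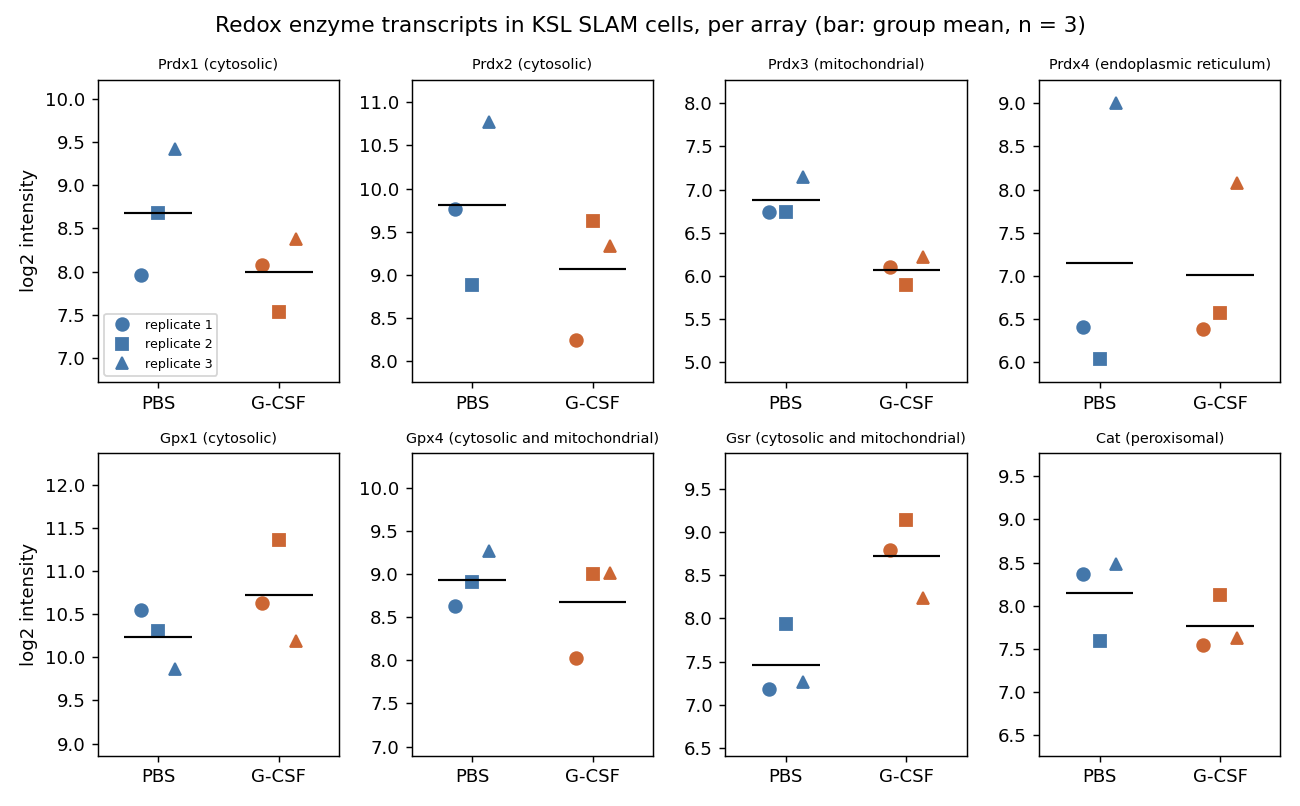
Log2 intensity of the 8 measured enzymes on each array (vertical axis, same span in each panel) for PBS and G-CSF groups (horizontal axis), with symbols for replicates 1 to 3 and a bar at the group mean. The G-CSF arrays of Prdx3 all lie below its PBS arrays and those of Gsr all lie above, while the other 6 enzymes overlap, and PBS replicate 3 is the highest array for 6 of the 8.

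Gsr, the reductase that restores glutathione, had intensities of 145, 245 and 154 on PBS arrays 1 to 3 and 444, 565 and 301 on G-CSF arrays 1 to 3. No G-CSF array was as low as any PBS array, the closest being G-CSF replicate 3 and PBS replicate 2. On the log2 scale the mean was 7.46 ± 0.41 with PBS and 8.72 ± 0.46 with G-CSF (SD, n = 3). The difference was 1.26 (SE 0.30, 95% interval 0.56 to 1.96, 2.40-fold), with a limma unadjusted p of 0.00359 and an adjusted p of 0.378, so it did not pass. It was 1.05 to 1.51 when each array was left out in turn. The neutrophil, progenitor and monocyte markers given above were higher on the same 3 arrays. Within the groups, replicate 2 had the highest Gsr value and the highest mean of the mature neutrophil markers in both PBS and G-CSF arrays (9.25 and 10.87). Neither of the other myeloid lists was highest on replicate 2 in both groups. The progenitor mean was highest on G-CSF replicate 2 (9.03) but lowest on PBS replicate 2 (6.43). The monocyte mean was highest on PBS replicate 2 (6.91) but lowest on G-CSF replicate 2 (7.15). Ranked over the 3 arrays of a group, Gsr had the order of the neutrophil and monocyte means with PBS and of the progenitor mean alone with G-CSF. The part of these cell markers in the Gsr difference was not tested.

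Prdx3, the mitochondrial peroxiredoxin, had intensities of 107, 107 and 142 on PBS arrays 1 to 3 and 68.8, 59.5 and 74.4 on G-CSF arrays 1 to 3. Every G-CSF array lay below every PBS array, the closest being G-CSF replicate 3 and PBS replicate 2. The signal was dim. Its mean over the 6 arrays stood at percentile 54.1 of the genes tested, the lowest among the measured enzymes. The G-CSF intensities lay not far above the median intensities of those arrays (61.7, 56.2 and 59.3). The log2 mean was 6.88 ± 0.24 with PBS and 6.07 ± 0.16 with G-CSF (SD, n = 3). The difference was -0.81 (SE 0.18, 95% interval -1.24 to -0.38), which is 0.572 of the PBS level, with a limma unadjusted p of 0.00289 and an adjusted p of 0.350, so it did not pass either. Leaving out each array gave -0.88 to -0.67. The stem cell and megakaryocyte marker means were lower on the same 3 arrays, and their part in the Prdx3 difference was not tested. Of all genes tested, those whose centred profile over the 6 arrays was nearest to that of Prdx3 were Zfp773, Tusc3 and Zbtb49, with root mean square distances of 0.0693, 0.0817 and 0.0846 on the log2 scale. Their differences were -0.84, -0.78 and -0.77, and values close to that of Prdx3 follow from how these genes were picked.

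The cytosolic peroxiredoxins had negative mean differences that lay within the spread of the arrays. Prdx1, an abundant peroxiredoxin that also acts in peroxide signalling, had log2 values of 7.96, 8.68 and 9.42 on PBS arrays and 8.08, 7.53 and 8.38 on G-CSF arrays. The groups overlapped, since PBS replicate 1 lay below 2 of the G-CSF arrays. The difference was -0.69 (SE 0.39, 95% interval -1.60 to 0.22, limma adjusted p = 0.932) and was -0.32 without PBS replicate 3 and -1.05 without PBS replicate 1. A further probeset annotated to Prdx1 had a difference of -0.55 (SE 0.36). It is numbered among probesets of chromosome 16 genes (9 of the 9 neighbours with a known chromosome), whereas the Prdx1 gene is on chromosome 4, and which sequence it detects was not tested.

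Prdx2, the peroxiredoxin that is plentiful in red cells, had log2 values of 9.77, 8.88 and 10.77 on PBS arrays and 8.25, 9.63 and 9.34 on G-CSF arrays. Its PBS arrays spanned more than the G-CSF arrays and enclosed 2 of them. The difference was -0.74 (SE 0.53, 95% interval -1.98 to 0.51, limma adjusted p = 0.948), and it was -0.25 without PBS replicate 3 and -1.20 without PBS replicate 2. The annotation holds another Prdx2 probeset, which is dimmer. The brighter one used here is numbered among probesets of chromosome 1 genes (10 of its 10 nearest listed neighbours), while the Prdx2 gene and the neighbours of the dimmer probeset are on chromosome 8. Which sequence the brighter probeset detects was not tested. The dimmer probeset had log2 values of 8.24, 8.02 and 8.97 on PBS arrays and 7.18, 8.22 and 7.68 on G-CSF arrays. Its difference was -0.72 (SE 0.34), with a limma adjusted p of 0.856 when it stood for the gene. Of the 8 erythroid markers that passed the filter, 5 had negative and 3 had positive differences. Their means were 6.50 to 6.91 in PBS and 6.44 to 6.60 in G-CSF arrays, and their part in the Prdx2 values was not tested.

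Prdx4, the peroxiredoxin of the endoplasmic reticulum, varied more between pools than between treatments. Its intensities were 84.7, 65.9 and 512 on PBS arrays 1 to 3 and 83.3, 94.7 and 270 on G-CSF arrays 1 to 3. Replicate 3 stood above the other arrays in both groups, and the other 4 arrays lay between 65.9 and 94.7. Among all genes, 7.23% had both of the replicate 3 arrays above the other 4, and Gpx4 was the other enzyme with that order. For Gpx4 the margin was narrow, with 515 on G-CSF replicate 3 and 512 on G-CSF replicate 2. A further Gpx4 probeset did not have that order (log2 8.72 and 8.76 on these arrays). The labels tie no array of one group to an array of the other. The log2 difference was -0.14 (SE 0.81, 95% interval -2.05 to 1.77, limma adjusted p = 0.999), and without PBS replicate 3 it was 0.79.

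Gpx1, the main cytosolic glutathione peroxidase, had log2 values of 10.55, 10.31 and 9.86 on PBS arrays and 10.63, 11.36 and 10.18 on G-CSF arrays. The G-CSF arrays were on average brighter, but G-CSF replicate 3 lay below 2 PBS arrays. The difference was 0.48 (SE 0.33, 95% interval -0.28 to 1.25, limma adjusted p = 0.940), and it was 0.17 when G-CSF replicate 2 was left out and 0.76 when G-CSF replicate 3 was. Gpx4, which reduces lipid peroxides in membranes, had intensities of 396, 479 and 617 on PBS arrays 1 to 3 and 259.8, 512 and 515 on G-CSF arrays 1 to 3. G-CSF replicate 1 alone lay below the PBS arrays. The log2 difference was -0.26 (SE 0.31, 95% interval -0.99 to 0.47, limma adjusted p = 0.967), and without that array it was 0.07. A further Gpx4 probeset gave -0.13 (SE 0.35).

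Cat, the peroxisomal catalase, had log2 values of 8.36, 7.60 and 8.48 with PBS and 7.55, 8.13 and 7.63 with G-CSF. PBS replicate 2 lay among the G-CSF arrays, so the groups overlapped. The difference was -0.38 (SE 0.28, 95% interval -1.04 to 0.28, limma adjusted p = 0.952), and it was -0.21 without PBS replicate 3 and -0.66 without PBS replicate 2.

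**Figure D2:**
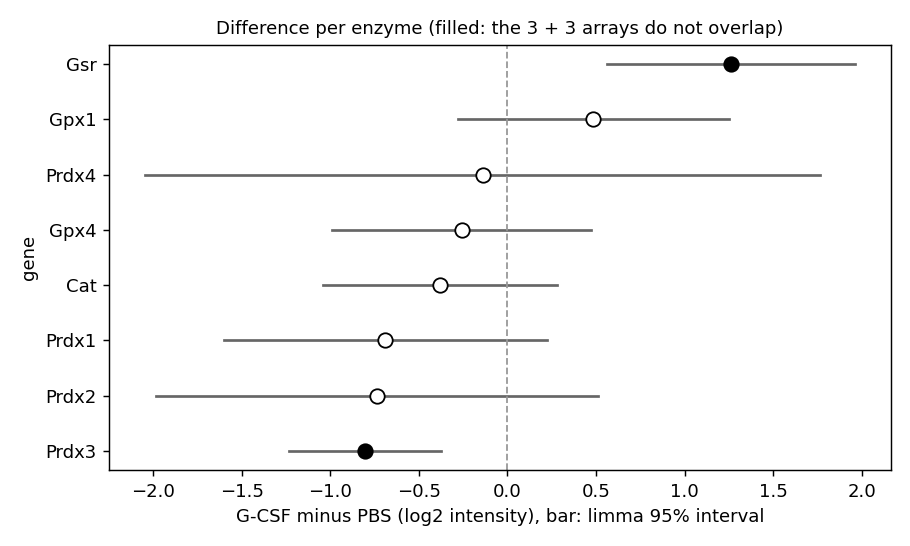
Difference between G-CSF and PBS for each enzyme on the log2 intensity scale (horizontal axis), with limma's 95% interval as a bar and filled points where the arrays of the groups do not overlap. The intervals of Gsr (0.56 to 1.96) and Prdx3 (-1.24 to -0.38) leave out 0, and those of the other 6 enzymes include it.

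PBS replicate 3 was the highest array for 6 of the 8 enzymes (Prdx1, Prdx2, Prdx3, Prdx4, Gpx4 and Cat) and for 18.2% of all genes. For Gpx1 it was the lowest. G-CSF replicate 1 was the lowest array for 3 enzymes (Prdx2, Gpx4 and Cat) and for 20.1% of all genes. Without PBS replicate 3, the differences of Prdx3 and Gsr were -0.67 and 1.16.

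The division between mitochondrial and cytosolic enzymes was compared next. The mitochondrial side rested on Prdx3 alone, since Prdx5 was not measured, and the cytosolic side on Prdx1, Prdx2 and Gpx1. The Prdx3 signal was dim, as given above. Each gene was centred on its mean over the 6 arrays before averaging, so that probesets of different brightness counted alike. The cytosolic mean was 0.01, -0.13 and 0.60 on PBS arrays 1 to 3 and -0.44, 0.08 and -0.12 on G-CSF arrays 1 to 3. These values overlapped between groups, with a difference of -0.31, whereas the values of Prdx3 did not, with a difference of -0.81. The mitochondrial value minus the cytosolic value was 0.25 ± 0.16 with PBS and -0.25 ± 0.38 with G-CSF (SD, n = 3), a difference of -0.49 for which no test was made. Its sign rested on where the enzymes of both compartments were placed. With Gsr and Gpx4 counted as mitochondrial it was 0.38, and with both counted as cytosolic it was -0.82. Within the cytosolic set the enzymes did not go one way, as Gpx1 had a positive and Prdx1 and Prdx2 had negative differences.

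The thioredoxin, superoxide dismutase and related enzymes exist as separate cytosolic and mitochondrial genes, which allowed the same comparison in 5 pairs of partners. In 5 of 5 pairs the mitochondrial partner had the lower difference. The remaining glutaredoxins, which were not among these pairs, had the opposite order, with -0.03 for mitochondrial Glrx5 and -0.12 for cytosolic Glrx3. Mitochondrial thioredoxin Txn2 differed by -0.55 and cytosolic Txn1 by 0.50. The thioredoxin reductases Txnrd2 and Txnrd1 differed by -0.33 and 0.10. The glutaredoxins Glrx2 and Glrx differed by -0.49 and 1.14. The dismutases Sod2 (-0.56) and Sod1 (-0.11) and the isocitrate dehydrogenases Idh2 (0.14) and Idh1 (0.72) had the same order. None of these 10 genes passed by limma (unadjusted p of 0.0543 for Glrx and larger for the rest). In 1 of the 5 pairs, Txn2 against Txn1, the within-array contrast did not overlap between groups. Its centred values were 0.64, 0.44 and 0.48 on PBS arrays 1 to 3 and -0.38, -1.18 and -0.01 on G-CSF arrays 1 to 3. Averaged over the pairs the contrast was 0.41 ± 0.35 with PBS and -0.41 ± 0.65 with G-CSF, and the groups overlapped. It was lowest on replicate 2 in both groups (0.01 with PBS and -1.10 with G-CSF), where the mature neutrophil marker mean was highest. The part of the cell markers in this contrast was not tested.

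With the other redox genes of each compartment added, 9 mitochondrial and 21 cytosolic genes were available. Of the mitochondrial genes, 7 had negative and 2 had positive differences (median -0.33), and of the cytosolic genes 8 had negative and 13 had positive differences (median 0.10). The mitochondrial minus the cytosolic mean was 0.17, 0.09 and 0.34 on PBS arrays 1 to 3 and -0.14, -0.43 and -0.03 on G-CSF arrays 1 to 3. The groups did not overlap in this contrast, whose difference was -0.40. Replicate 2 was again the lowest array in both groups, and the part of the cell markers was not tested. Each side taken alone did overlap. The mitochondrial mean, with Prdx3 among its genes, was -0.01 to 0.39 in PBS arrays and -0.27 to 0.07 in G-CSF arrays. The cytosolic mean was -0.12 to 0.06 in PBS arrays and -0.14 to 0.21 in G-CSF arrays. The lists were assembled with results of these arrays known, so no p-value is given, and with 3 arrays in each group an exact permutation test (two-sided) cannot go below 0.1.

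**Figure D3:**
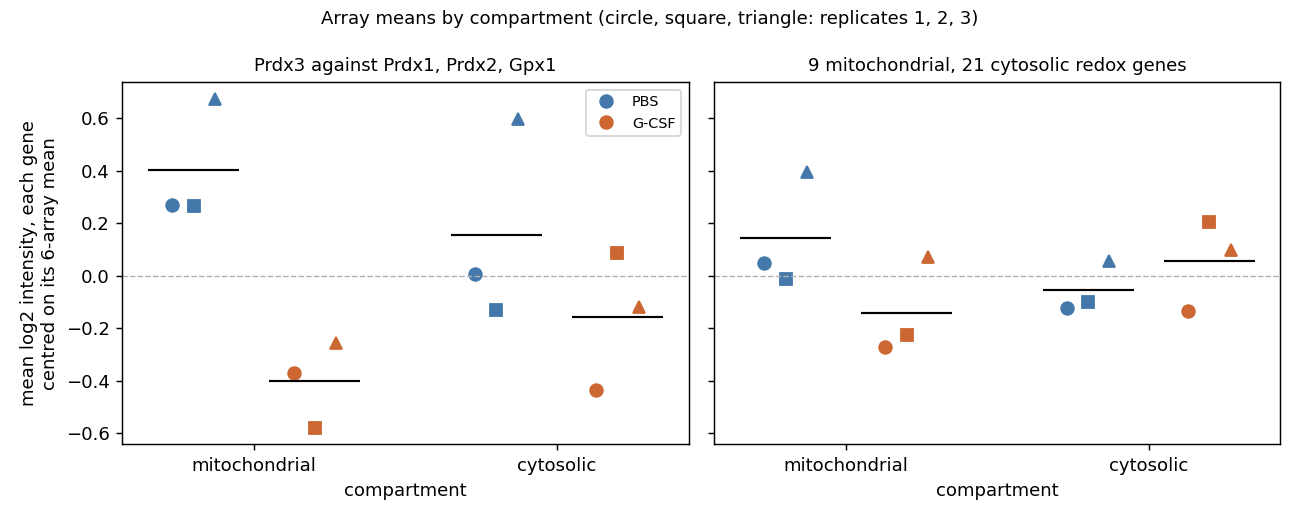
Mean log2 intensity per array by compartment, each gene centred on its mean over the 6 arrays (vertical axis), for the named enzymes (left) and with other redox genes added (right); bars mark group means and symbols the replicates. Mitochondrial values sit lower in G-CSF arrays in the left panel (Prdx3 alone). On the right the mitochondrial difference is -0.29 and the cytosolic one 0.11, with overlap between groups in each.

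Other genes of the pathway were taken from a list of 63, of which 61 had a probeset and 54 passed the filter. By limma 0 of the 54 passed after adjustment, and without adjustment 1 gene was higher and 4 were lower at p under 0.05, against 2.73% and 3.3% of all genes. Groups did not overlap in 2 of the 54 genes that were higher and 4 that were lower, against 5.77% and 5.05% of all genes. The median difference was -0.04. Mgst2, a microsomal glutathione transferase, had log2 values of 7.53, 6.77 and 7.71 with PBS and 8.20, 9.28 and 9.09 with G-CSF, without overlap (difference 1.52, SE 0.36, limma adjusted p = 0.378). Its relative Mgst3 differed in the other direction (-0.90, SE 0.27, limma adjusted p = 0.564), also without overlap. Glutathione transferases as a group had 2 positive and 8 negative differences among 10 genes, with a median of -0.28.

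In the thioredoxin system, 6 of 9 genes had negative differences. Txnrd3, a thioredoxin reductase that can also reduce glutathione, differed by -0.79 (SE 0.21, limma adjusted p = 0.450) without overlap. Among the 7 genes of glutathione synthesis and the glutaredoxins, Glrx had log2 values of 6.71, 7.98 and 8.02 with PBS and 8.39, 9.65 and 8.09 with G-CSF. The lowest G-CSF value was just above the highest PBS value, and the difference was 1.14 (SE 0.50, limma adjusted p = 0.847). Gss, glutathione synthetase, differed by 0.33 (SE 0.20). The superoxide dismutases Sod2 (-0.56, SE 0.41) and Sod1 (-0.11, SE 0.18), which make hydrogen peroxide from superoxide, did not pass. Of the remaining glutathione peroxidases Gpx2 (-0.37, SE 0.16) and Gpx7 (-0.08) passed the filter, 2 of 6.

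Genes that supply NADPH, which Gsr and the thioredoxin reductases consume, had 7 positive and 1 negative difference among 8 genes. Over all genes, 49.7% of differences were negative. The median was 0.17 against 0.00 over all genes (0.0015). Pgd of the pentose phosphate pathway (0.73, SE 0.45, limma adjusted p = 0.934) and Idh1 (0.72, SE 0.50, limma adjusted p = 0.946) had the smallest unadjusted p among them. Both were highest on replicate 2 in each group, as the mature neutrophil marker mean was. The part of the cell markers in these differences was not tested. The NRF2 group was split evenly, with 4 positive and 4 negative differences among 8 genes. Nfe2l2, which encodes NRF2, differed by 0.01 (95% interval -0.61 to 0.63), and the small MAF proteins Maff (-0.42, SE 0.28) and Mafg (0.13, SE 0.16) had the smallest unadjusted p. Sesn1, a sestrin, differed by -0.78 (SE 0.28, limma adjusted p = 0.749) without overlap, and the methionine sulfoxide reductase Msrb2 by -0.58 (SE 0.43).

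The peroxisome genes, listed as background for catalase, had 9 negative and 6 positive differences among the 15 that passed the filter, with a median of -0.05. By limma 0 passed after adjustment. Without adjustment 2 were lower and 0 higher at p under 0.05, against 3.3% and 2.73% of all genes. Groups did not overlap in 1 gene that was lower and 1 that was higher, against 5.05% and 5.77% of all genes. Pex13, part of the import machinery of peroxisomes, differed by -0.55 (SE 0.18, limma adjusted p = 0.664) without overlap, and the import receptor Pex7 by -0.61 (SE 0.25, limma adjusted p = 0.822) with overlap.

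**Figure D4:**
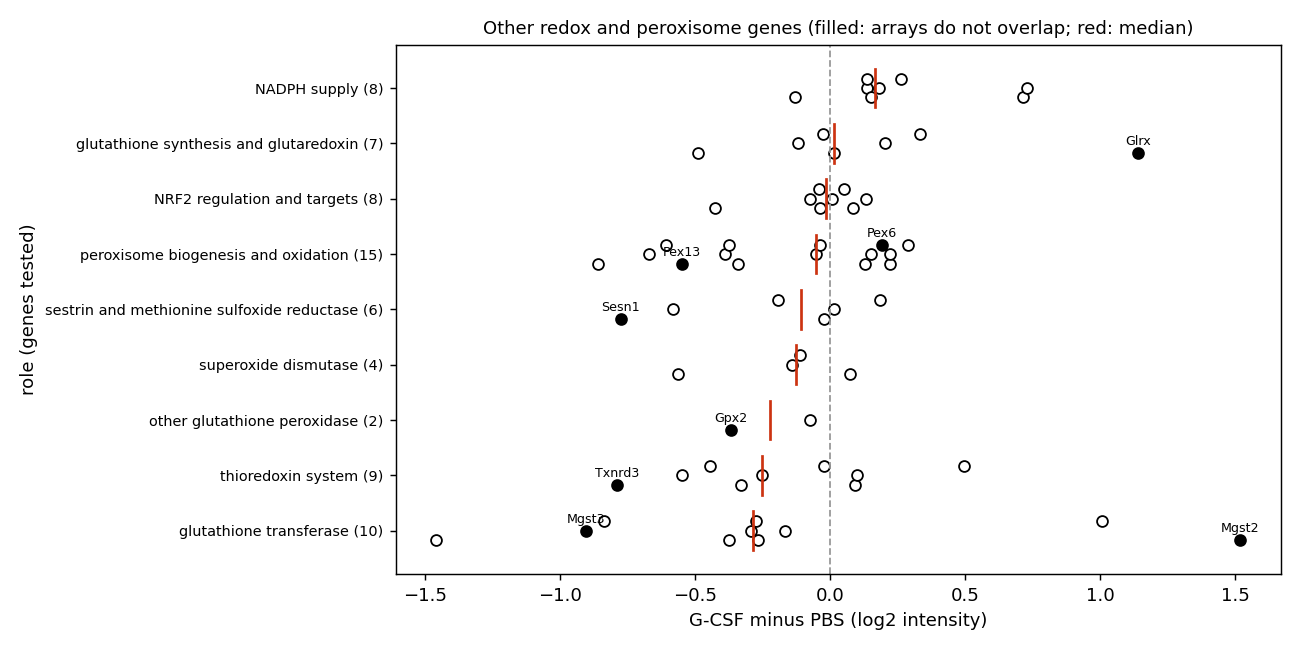
Difference between G-CSF and PBS on the log2 intensity scale (horizontal axis) for each tested redox and peroxisome gene outside the named enzymes, by role (vertical axis, number of genes in brackets); filled, labelled points had no overlap between arrays and red lines are medians. Glutathione transferases span the widest range, from Gsta4 at -1.46 to Mgst2 at 1.52, and NRF2 genes lie between -0.42 and 0.13.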

How the data were processed

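The deposited values are probeset intensities on a linear scale, made with RMA (background correction, quantile normalization and a summary over probes), per the submitters' processing notes. The sources used here give no RMA version and no build. log2 was taken first. Of 35554 probesets, the platform annotation gave 21789 a single gene symbol (the ones used), 1621 more than 1 symbol and 12144 no entry. The lowest 25% of these by mean over the 6 arrays (up to 5.15 on the log2 scale) were left out, and the brightest probeset stood for each gene. Groups were compared with limma 3.58.1 in R 4.3.3 (lmFit, eBayes, no covariate, two-sided) with Benjamini-Hochberg adjustment over all 14994 genes at a threshold of 0.05. On simulated arrays of the 14994 genes with independent normal noise, the fit recovered 39.6% of genes shifted by 1 and 84.4% of those shifted by 2 on the log2 scale. Shifts of 1, 2, 3 and 4 were planted together in equal numbers. Recovery after adjustment depends on that mix, so these shares are not the power for the real arrays. Figures were drawn with matplotlib 3.10.9.

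The members and the lists were chosen with earlier results of these data known. Named were all members, the 2 genes per role with the smallest unadjusted p, and the partners with a cytosolic and a mitochondrial form, besides the 3 genes most like the member with the smallest p. Gsta4, Nfe2l2, Glrx3 and Glrx5 are outside that rule and were picked once their values were known. Alternatives varied the compartments, normalization, filter, probeset rule, variance model, array weights and replicate block, and left out single arrays. With 3 arrays per group, their number limits the precision. The labels state no pairing, so the numbers were not taken as pairs. Same-numbered arrays of the groups nevertheless had correlations of 0.02 to 0.29 between their deviations from group means, and 2 of 3 pairs exceeded 0.1.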

Additional observations from a re-analysis of the deposited data

How the results depend on the processing

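Of the 120 differences of single enzymes under alternatives, 115 kept their sign and their side of the threshold, and 5 changed sign without passing. These were Prdx4 with array weights (0.0048), Prdx4 on leaving out arrays in turn (-0.69 to 0.79, positive without PBS replicate 3, G-CSF replicate 1 or G-CSF replicate 2) and Gpx4 on leaving out arrays in turn (-0.42 to 0.07, or 0.0701, positive without G-CSF replicate 1). The filter settings, variance model and replicate block left each enzyme's difference as it was and altered only its p. The probeset rules could alter only enzymes with a further probeset. The count that kept its sign thus includes differences that could not change. By limma 0 enzymes and 0 of the other redox and peroxisome genes passed under any alternative run. The adjusted p ranged from 0.279 to 0.694 for Prdx3 and from 0.196 to 0.787 for Gsr. The mitochondrial minus cytosolic difference of -0.49 became 0.38 with Gsr and Gpx4 counted as mitochondrial and -0.82 with both counted as cytosolic. Its range was -0.65 to -0.28 on leaving out arrays in turn. The variance model, array weights and replicate block were not run for it, because no model was fitted to it. Leaving Prdx5 out gives the value reported, since it was not measured. The Prdx2 probeset numbered among genes of its own chromosome, an alternative chosen after seeing the data, gave -0.72. With the replicate number as a block, the difference of Gsr had an SE of 0.19 and an adjusted p of 0.196, and that of Prdx3 an SE of 0.17 and an adjusted p of 0.279, so the block changed no call. In 5 of 6 arrays the correlation was highest with the array of the same number in the other group, a hint from the data and not the design. Deviations from a group mean cancel within the group, and each same-number pair was counted from both sides. The 6 arrays are thus not 6 independent looks.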
